A study of Mus musculus with 64 samples.

Results

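Ketamine was compared with saline in the prefrontal cortex (PFCx) of the mouse, and the comparison rests on 12 of the 64 libraries of the series. They were chosen from the tissue and treatment labels as 4 ketamine and 8 saline libraries, and the titles divide the saline libraries into set I and set II with 4 libraries each. All 12 came from adult male C57BL/6N mice of 8 to 10 weeks that received 1 intraperitoneal injection and were decapitated 2 h later. The ketamine mice received 20 mg/kg of ketamine dissolved in saline and the control mice received saline alone, with no transgene or other treatment in either group. The dissected tissue held the cingulate, prelimbic and infralimbic cortex with part of the dorsal peduncular cortex. Total RNA was depleted of ribosomal RNA and sequenced as single-end reads. Neither the labels nor the methods state how many mice stand behind a library, so the p-values measure the spread between libraries.

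Ketamine is a dissociative anaesthetic that blocks the open channel of the NMDA receptor, a glutamate-gated cation channel built from an obligatory GluN1 subunit and GluN2 or GluN3 partners. At doses below anaesthesia it is known to raise glutamate release and pyramidal cell firing in the prefrontal cortex and to activate the hypothalamic-pituitary-adrenal axis. Pyramidal cell activity switches on immediate-early genes such as Fos, and corticosterone switches on genes bound by the glucocorticoid receptor, so both groups of genes are commonly read in this tissue after acute drugs.

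Levels are given as FPKM, fragments scaled to transcript length and library size, summed over the transcripts of a gene. Tests used log2(FPKM + 1), a scale on which the change of genes with low levels is understated, and a gene passed at an adjusted p under 0.05 from limma. The files hold no read counts, and the aligned bases behind a ketamine library were estimated at 1.82 to 2.56 gigabases, against 1.52 to 2.95 over all 32 PFCx libraries. Transcripts shorter than 200 bases took between 29.3% and 41.5% of the summed FPKM in saline set I, 47.3% to 59.3% in saline set II and 30.0%, 47.5%, 43.2% and 48.2% in ketamine replicates 1 to 4. The first principal component, with 46.8% of the variance of 15695 genes, separated the 2 saline sets without overlap and placed the ketamine libraries between them. The labels do not state which saline set goes with ketamine. Set II was taken from the values themselves, since the NAc tables list 107099 to 110059 transcripts above 0 for ketamine, 109231 to 110063 for set II and 85397 to 87827 for set I (4 libraries each), and all comparisons with set II rest on this reading. Differences are given against the 8 saline libraries, and for part of the genes also against set II alone. In bulk tissue, fewer cells of a type and less RNA per cell cannot be told apart.

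Against the 8 saline libraries 6 of 36807 tested genes passed, which is 0.0163% of the genes, with 5 higher (0.0136%) and 1 lower (0.00272%). The genes that rose were Tsc22d3, Slc2a1, Snhg12, 2410131K14Rik and Gm25445, and Nol4 fell. At an unadjusted p under 0.05 there were 832 higher (2.26%) and 2172 lower genes (5.9%), together 8.16% of those tested, and the median difference over all tested genes was -0.03 on the log2 scale. All 4 ketamine libraries lay above all 8 saline libraries for 74 genes (0.201%) and below them for 202 (0.549%). The 12 higher and 12 lower genes named below were picked from among these, so their lack of overlap with saline follows from the choice.

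Tsc22d3 (ENSMUSG00000031431, GRCm38 chrX:140539528-140600659) encodes the glucocorticoid-induced leucine zipper protein, which restrains inflammatory transcription factors. Its level was 16.01, 17.3, 15.1 and 19.6 FPKM in the 4 ketamine libraries, and in the 8 saline libraries it had a lowest value of 7.95, a median of 10.1 and a highest value of 11.9 FPKM. The lowest ketamine library stood above the highest saline library. The mean was 1.68 times that of saline, with a log2 difference of 0.70 ± 0.09 (SE) and an adjusted p of 0.000324 from limma, and against set II the log2 difference was 0.63 with an adjusted p of 0.00161.

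Slc2a1 (ENSMUSG00000028645, chr4:119108711-119137983) encodes the glucose transporter GLUT1 of the blood-brain barrier and of astrocytes. The ketamine libraries held 17.99, 14.04, 12.7 and 11.7 FPKM, and the saline libraries ran from 6.70 through a median of 8.73 to 9.78 FPKM. No ketamine library overlapped with saline, and replicate 1 was the highest. The mean was 1.68 times that of saline (log2 difference 0.68 ± 0.10 SE, limma adjusted p = 0.00635), and 0.73 on the log2 scale above set II (limma adjusted p = 0.00182). Without ketamine replicate 1 the log2 difference from the 8 saline libraries was 0.56 and the limma adjusted p was 0.074.

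Snhg12 (ENSMUSG00000086290, chr4:132308678-132311024) is a noncoding host transcript whose introns carry small nucleolar RNAs (snoRNAs). It stood at 72.2, 63.4, 62.5 and 78.2 FPKM after ketamine, against a lowest value of 36.4, a median of 40.2 and a highest value of 45.4 FPKM after saline. The 2 groups were apart by more than the whole range of saline. The log2 difference was 0.74 ± 0.11 (SE, limma adjusted p = 0.00635) against the 8 saline libraries and 0.71 (limma adjusted p = 0.00484) against set II. The limma adjusted p rose to 0.074 without ketamine replicate 1 and to 0.0938 without ketamine replicate 4. Whether snoRNA reads entered the values of host genes is not stated.

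2410131K14Rik (ENSMUSG00000032840), a protein-coding gene on chromosome 5, was at 2.71, 2.66, 2.50 and 2.45 FPKM after ketamine and between 1.75 and 2.07 FPKM, with a median of 1.97, after saline. The groups did not overlap, and the log2 difference was 0.28 ± 0.05 (SE) with a limma adjusted p of 0.0291. Against set II the log2 difference was 0.25 (limma adjusted p = 0.0184). Gm25445 is a small RNA gene whose mean lay under 1 FPKM, and it is named only because its values were seen to pass. Its ketamine libraries held 0.444, 1.81, 1.11 and 0.882 FPKM, and the highest saline library, at 0.593 FPKM, lay above ketamine replicate 1. The limma adjusted p was 0.0451 against the 8 saline libraries and 0.0115 against set II.

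Nol4 (ENSMUSG00000041923), which encodes a nucleolar protein expressed in neurons and lies on chromosome 18, was the gene that fell. Its level was 22.1, 21.9, 21.7 and 22.2 FPKM after ketamine, and the saline libraries ran from 27.3 through a median of 27.4 to 29.8 FPKM. The ketamine libraries were nearly equal to each other and lay below every saline library. The mean was 0.79 of the saline mean, with a log2 difference of -0.32 ± 0.06 (SE, limma adjusted p = 0.0291), and -0.33 against set II (limma adjusted p = 0.00724). Of 25 alternative settings 15 kept the call of 2410131K14Rik and 12 that of Nol4, against 24 for Tsc22d3 and 23 for Slc2a1. The call of Gm25445 was kept in 9 of 23, and that of Snhg12 in 22 of 24. Leaving out any 1 ketamine library ended the calls of 2410131K14Rik and Nol4, with limma adjusted p between 0.0829 and 0.184.

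**Figure D1:**
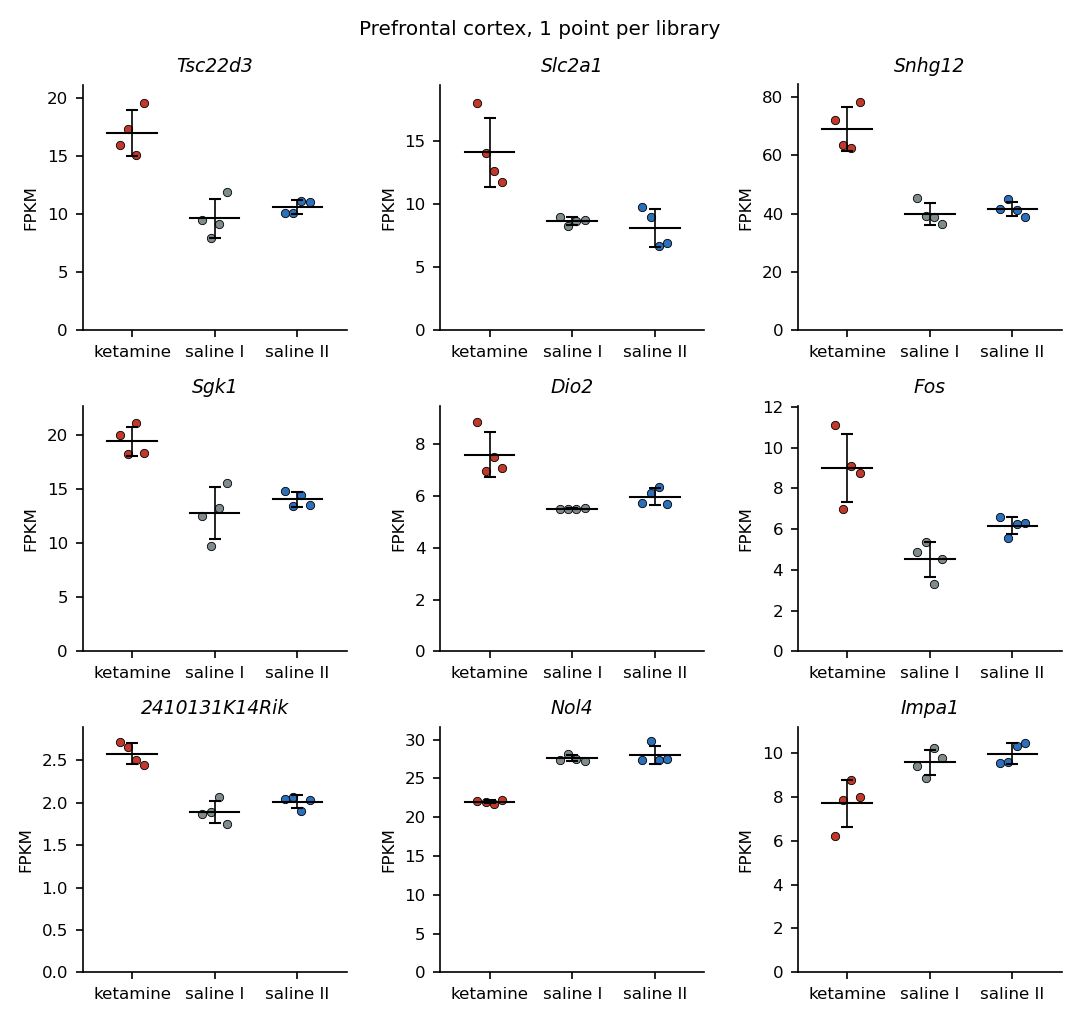
FPKM of 9 genes in the prefrontal cortex, with 1 point per library for ketamine (n = 4), saline set I (n = 4) and saline set II (n = 4). Horizontal lines are means and error bars are SD. The 4 ketamine points lie above all 8 saline points in 7 panels and below them for Nol4 and Impa1. The 9 genes were chosen by a rule that requires this separation.

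The glucocorticoid-responsive genes held 24 members, all tested. Of these 2 rose against the 8 saline libraries, Tsc22d3 and Slc2a1, and 0 fell, while against set II 3 rose and 0 fell, the third being Sgk1. Over all tested genes 0.0136% were called higher against the 8 saline libraries and 0.266% against set II. The list had a median log2 difference of 0.21 from the 8 saline libraries and 0.23 from set II, beside a median of -0.03 and -0.02 over all tested genes. A total of 20 of the 24 members had a positive difference in each comparison. In 5 members all ketamine libraries exceeded all saline libraries, as they did in 0.201% of all tested genes. In 1 member all ketamine libraries lay below all saline libraries, as in 0.549% of all tested genes. The list was put together with earlier results of these data known.

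Sgk1 encodes a kinase that regulates ion channels and transporters and is induced by corticosteroids. The level in the ketamine libraries was 19.9, 18.2, 21.04 and 18.3 FPKM, and the saline libraries had a lowest value of 9.69, a median of 13.5 and a highest value of 15.6 FPKM. There was no overlap. The log2 difference was 0.51 ± 0.10 (SE) with a limma adjusted p of 0.0564 against the 8 saline libraries, and 0.44 with a limma adjusted p of 0.042 against set II. The call against set II was kept in 5 of 18 alternatives, with limma adjusted p up to 0.128.

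Fkbp5 encodes a cochaperone that lowers the affinity of the glucocorticoid receptor for its hormone. Its level was 5.38, 6.48, 4.96 and 6.0003 FPKM after ketamine, against 3.35 to 4.96 FPKM with a median of 3.97 after saline. The ketamine library lowest in Fkbp5 stood only just above the saline library highest in it. The difference did not pass in either comparison (0.39 on the log2 scale, limma adjusted p = 0.31, against 8). Cdkn1a, the cell cycle inhibitor p21, lay at 4.45 to 5.97 FPKM after ketamine and 3.24 to 4.37 FPKM after saline, with a log2 difference of 0.31 and a limma adjusted p of 0.46. Nr3c1, the gene of the glucocorticoid receptor itself, was at 11.5 to 12.1 FPKM after ketamine and at 12.1 to 13.8 FPKM after saline, a log2 difference of -0.11 with a limma adjusted p of 0.71.

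Dio2 encodes the deiodinase that turns thyroxine into active thyroid hormone in astrocytes. It was measured at 8.86, 6.95, 7.49 and 7.07 FPKM after ketamine, and the saline libraries ran from 5.50 through a median of 5.62 to 6.35 FPKM. All ketamine libraries were above saline. The log2 difference was 0.35 ± 0.07 (SE, limma adjusted p = 0.0564) against the 8 saline libraries and 0.30 against set II (limma adjusted p = 0.0441), a call kept in 5 of 18 alternatives with limma adjusted p up to 0.364.

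Fos encodes a subunit of the AP-1 transcription factor and is the standard marker of recent neuronal activity. Its level was 11.1, 6.99, 9.11 and 8.75 FPKM after ketamine, and saline had a lowest value of 3.31, a median of 5.46 and a highest value of 6.59 FPKM. The groups did not overlap, although set I (3.31 to 5.34 FPKM) lay below set II (5.57 to 6.59 FPKM). The log2 difference was 0.66 ± 0.13 (SE) from the 8 saline libraries with a limma adjusted p of 0.0701, and 0.46 from set II with a limma adjusted p of 0.0753. The exact permutation test gave p = 0.00202 over 495 splits against 8 libraries and p = 0.0286 over 70 splits against 4, in each case the smallest the design allows. Fos was named because all its ketamine libraries lay above saline. That choice by itself brings these p-values to or near the minimum, so they add no evidence.

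Stretches before the annotated starts of Sgk1, Dio2 and Fos are shown because these genes are textbook targets of hormone and activity signals and their windows held named motifs. The sequences are those of RefSeq on GRCm38.p6, printed 5′ to 3′ on the strand of the gene, and capitals mark the motif matches. The motifs searched on both strands in the 250 bases before the start were a palindromic glucocorticoid response element (GNACA and TGTNC, 3 bases apart), the cAMP response element (TGACGTCA), its core (TGACG, which the full element contains) and a TATA box (TATAAA).
Sgk1, chr10:21993685-21993744, plus strand: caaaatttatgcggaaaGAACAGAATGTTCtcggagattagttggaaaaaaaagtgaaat
Dio2, chr12:90739059-90739148, minus strand: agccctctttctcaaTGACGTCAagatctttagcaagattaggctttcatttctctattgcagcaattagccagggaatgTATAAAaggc
Fos, chr12:85473810-85473869, plus strand: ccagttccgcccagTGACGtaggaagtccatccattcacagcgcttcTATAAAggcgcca

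A glucocorticoid element is held by 0.39% of the 32851 RefSeq windows. In 1 of the 6 Sgk1 windows it lies at positions -188 to -176 from the annotated start. This start belongs to a minor Sgk1 transcript (ENSMUST00000092673) with a mean of 0.398 FPKM after ketamine and 0.318 FPKM after saline. The Sgk1 transcripts with the most FPKM, ENSMUST00000141218 and ENSMUST00000020145, start downstream of it and had means of 6.08 and 5.12 FPKM after ketamine and 3.64 and 2.92 FPKM after saline. The 3 Tsc22d3 windows and the 1 Slc2a1 window held 0 glucocorticoid elements. The Tsc22d3 transcript that passed against the 8 saline libraries, ENSMUST00000055738, had no window at its start, so its own promoter was not searched. The Dio2 window holds the full cAMP element at -95 to -88 (1.55% of all windows), and the Fos window holds its core at -66 to -62 (17.8% of all windows). Of the 12 named higher genes 10 had a window, and 8 of them held a TGACG core in at least 1 window, in 8 of 17 windows (47.1%). Of the 12 named lower genes 8 had a window and 1 held the core, in 2 of its windows out of 10. The glucocorticoid element was in 1 of 17 windows of the higher and 0 of 10 of the lower genes. The full cAMP element was in 2 of 17 and 0 of 10, and the TATA box in 4 of 17 and 1 of 10. These genes were chosen by their values, and a match describes the letters alone.

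The immediate-early and activity-regulated genes held 52 members, of which 0 passed against the 8 saline libraries with limma and 19 had an unadjusted p under 0.05, 17 higher and 2 lower. Over all tested genes 2.26% were higher and 5.9% lower at that p. Against set II 2 members passed with limma, 1 higher and 1 lower, beside 1.52% of all tested genes. The median log2 difference of the list was 0.13 against 8 and 0.14 against set II. In 4 members, Fos, Fosb, Irs2 and Dusp5, all ketamine libraries exceeded all saline libraries, against 0.201% of all tested genes.

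Fosb, which like Fos encodes a partner of Jun proteins in AP-1, stood at 3.61, 2.19, 2.42 and 2.75 FPKM after ketamine and at 1.46 to 2.11 FPKM after saline, with a limma adjusted p of 0.2 for a log2 difference of 0.43. Arc, an effector of synaptic scaling, was at 15.3 FPKM in ketamine replicate 1 and at 8.80 to 9.86 FPKM in the other ketamine libraries, against 5.36 to 10.1 FPKM after saline, so these 3 overlapped with saline. Plk2, a kinase that weakens active synapses, was the member that rose against set II (28.7 to 35.2 FPKM against 26.8 to 27.9 FPKM, log2 difference 0.23, limma adjusted p = 0.0428), but its range overlapped with that of set I and 3 of 18 alternatives kept the call, with limma adjusted p up to 0.401. Klf6, a zinc-finger transcription factor, was the member that fell against set II, with 6.08 to 7.49 FPKM after ketamine and 7.88 to 9.09 FPKM in set II (log2 difference -0.29, limma adjusted p = 0.0223), a call kept in 9 of 18 alternatives.

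Bdnf, the neurotrophin often studied after ketamine, lay between 3.63 and 4.20 FPKM after ketamine and 2.94 and 4.38 FPKM after saline. The ketamine values fell inside the saline range, with a log2 difference of 0.03 and a limma adjusted p of 0.94. Npas4, an activity-induced transcription factor of inhibitory synapses, was at 1.56 to 2.64 FPKM after ketamine and 1.44 to 2.90 FPKM after saline, a log2 difference of -0.01. Homer1, a postsynaptic scaffold gene with an activity-induced short form, lay at 42.6 to 52.4 FPKM after ketamine and 40.2 to 57.7 FPKM after saline at the level of the gene.

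**Figure D2:**
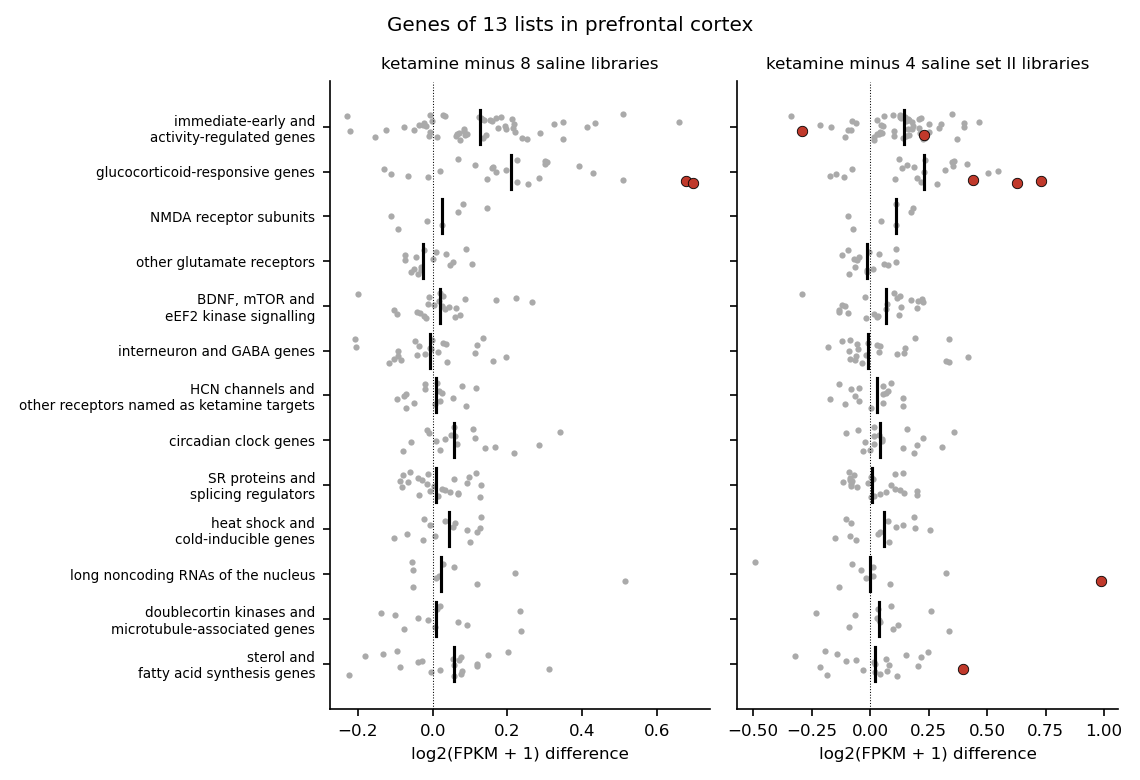
Difference of mean log2(FPKM + 1) between ketamine and the 8 saline libraries (left) and the 4 saline set II libraries (right) for the tested members of 13 gene lists. Each point is a gene, red points passed at an adjusted p under 0.05, and black bars are the list medians, which are largest for the glucocorticoid-responsive genes at 0.21 and 0.23.

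The NMDA receptor is the channel that ketamine blocks. All 7 of its subunit genes were tested and 0 passed in either comparison with limma, with 0 members at an unadjusted p under 0.05 against the 8 saline libraries and 1 against set II. Over all tested genes 0.0163% passed against the 8 saline libraries and 1.52% against set II. At the unadjusted p the shares were 8.16% and 13.1%, so these counts do not set the 7 genes apart. Grin1, the obligatory subunit, was at 57.9, 51.6, 59.2 and 49.9 FPKM after ketamine and ran from 45.0 through a median of 51.4 to 58.4 FPKM after saline. The groups overlapped, with a log2 difference of 0.08 ± 0.07 (SE) and a limma adjusted p of 0.797.

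Grin2a, the main GluN2 subunit of the adult forebrain, was at 48.2, 36.6, 37.6 and 43.3 FPKM after ketamine and at 31.1 to 42.4 FPKM after saline, with a log2 difference of 0.14 and a limma adjusted p of 0.669. Grin2b, another GluN2 subunit gene, was at 53.4 to 56.7 FPKM after ketamine, inside the 46.6 to 58.2 FPKM of the 8 saline libraries. The ketamine values lay above the 46.6 to 50.9 FPKM of set II, where the limma adjusted p was 0.298. The Grin2c and Grin2d subunit genes stood at 1.77 to 2.26 and 0.556 to 0.872 FPKM after ketamine, and Grin3a and Grin3b, whose subunits lower calcium entry, at 4.32 to 5.33 and 0.063 to 0.243 FPKM. These 4 overlapped with saline, and their log2 differences from the 8 saline libraries lay between -0.11 and 0.02.

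**Figure D3:**
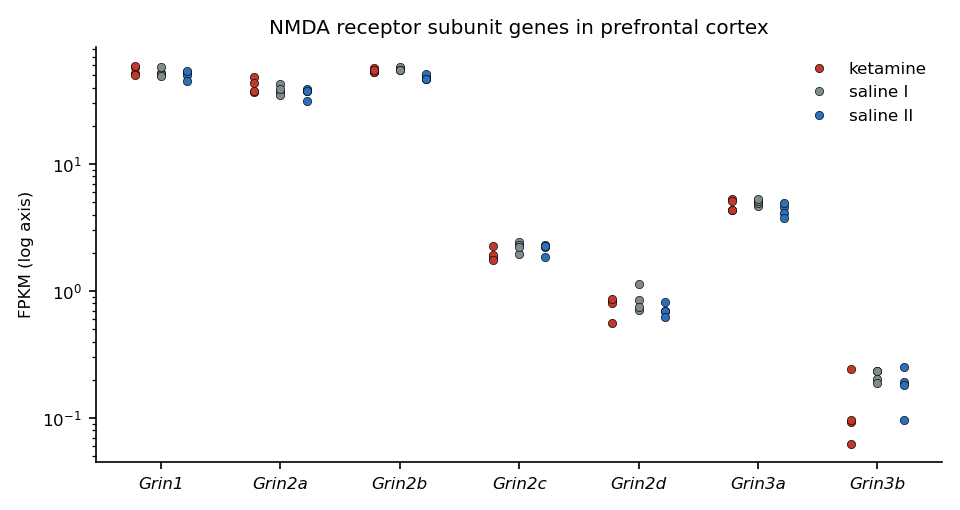
FPKM of the 7 NMDA receptor subunit genes on a log axis, with 1 point per library for ketamine, saline set I and saline set II (n = 4 each). For each of the 7 genes the ketamine points overlap with those of the 8 saline libraries.

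The other lists showed few calls. With limma, 0 members passed in either comparison among the 16 other glutamate receptor genes, the 23 genes of BDNF, mTOR and eEF2 kinase signalling, the 23 interneuron and GABA genes, the 16 genes of HCN channels and other receptors held to bind ketamine, the 18 clock genes, the 24 SR protein and splicing genes, the 14 heat shock and cold-inducible genes, and the 12 tested genes of doublecortin kinases and microtubules. The numbers with an unadjusted p under 0.05 against the 8 saline libraries were 0, 2, 2, 0, 3, 0, 0 and 3 in this order. Over all tested genes the share at that p was 8.16%. Only 0.0163% of all tested genes passed against the 8 saline libraries and 1.52% against set II, so 0 calls do not set lists of this size apart. The medians of these lists lay between -0.03 and 0.06 against the 8 saline libraries.

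In the comparison with set II 0.266% of all tested genes were called higher. Among 21 sterol and fatty acid synthesis genes 1 rose against set II, Msmo1, a sterol demethylase of cholesterol synthesis. It was at 20.9, 22.5, 21.6 and 20.2 FPKM after ketamine and at 13.7 to 18.5 FPKM after saline, with a log2 difference of 0.31 from the 8 libraries (limma adjusted p = 0.314) and 0.40 from set II (limma adjusted p = 0.032), the latter kept in 9 of 18 alternatives. Among 10 long noncoding RNAs of the nucleus 1 rose against set II, Snhg1, another snoRNA host. Its ketamine libraries held 506, 320, 332 and 373 FPKM, above set II at 169 to 230 FPKM and overlapping with set I at 301 to 455 FPKM.

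Rpl6 and Eif4a1 were among the named higher genes that did not pass against the 8 saline libraries. Rpl6, a protein of the large ribosomal subunit, was at 419, 267, 320 and 405 FPKM after ketamine and at 173 to 238 FPKM, with a median of 195, after saline (log2 difference 0.80, limma adjusted p = 0.107 against 8 and 0.0473 against set II). Its call against set II was kept in 3 of 18 alternatives, with limma adjusted p up to 0.441. Eif4a1, an RNA helicase of translation initiation whose introns carry snoRNAs, was at 164, 119, 139 and 140 FPKM against 72.6 to 115 FPKM (log2 difference 0.58, limma adjusted p = 0.12 against 8 and 0.0529 against set II). Neither gene overlapped with saline. Ribosomal protein genes have processed copies in the genome, and how reads matching several places were handled is not stated in the sources used here. Dancr, a noncoding snoRNA host, was listed at 1.89, 2.95, 4.76 and 5.62 FPKM after ketamine. Each saline library held 1.02 FPKM or less of Dancr, several at or near 0. The limma adjusted p was 0.131 against 8 and 0.0242 against set II, the latter call kept in 11 of 17 alternatives.

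The other named higher genes that did not pass against the 8 saline libraries were Srl, a calcium-binding protein gene, and Crkl, a signalling adaptor gene, with log2 differences of 0.44 and 0.27. Against set II Srl passed (limma adjusted p = 0.0354), a call kept in 9 of 18 alternatives, and Crkl did not (limma adjusted p = 0.0935). Among the lower genes that did not pass, Impa1 encodes inositol monophosphatase, an enzyme that lithium inhibits. It was at 6.21, 7.86, 8.74 and 7.98 FPKM after ketamine and ran from 8.87 through a median of 9.67 to 10.5 FPKM after saline. The groups were apart by a small gap, and the log2 difference was -0.31 ± 0.06 (SE, limma adjusted p = 0.0564) against 8 and -0.34 (limma adjusted p = 0.00987) against set II. The snoRNA gene Gm24233 was at 9.21 to 13.1 FPKM after ketamine and at 13.6 to 35.6 FPKM after saline, a log2 difference of -1.11 (limma adjusted p = 0.0564 against 8 and 0.0218 against set II, the latter kept in 9 of 16 alternatives). Elp6, a subunit gene of the Elongator complex, was at 2.24 to 3.32 FPKM after ketamine, against 3.65 to 4.18 FPKM in set II and 4.93 to 7.38 FPKM in set I. Fam92a, Gsap, Zranb3, Abcb1b, Luzp2, Ccdc7b, 2210418O10Rik and 1700099I09Rik completed the lower genes, with log2 differences from -0.46 to -0.20.

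At the level of single transcripts 3 of 84728 passed against the 8 saline libraries (0.00354%), all higher, and 5778 had an unadjusted p under 0.05 (6.82%). The Tsc22d3 transcript ENSMUST00000055738 was at 9.85, 12.9, 8.31 and 13.2 FPKM after ketamine and at 3.22 to 5.39 FPKM, with a median of 4.75, after saline. Its mean was 2.42 times that of saline (log2 difference 1.10, limma adjusted p = 0.000303), and it made up 65.1% of the FPKM of the gene after ketamine and 45.1% after saline. The Tsc22d3 transcripts ENSMUST00000112995 and ENSMUST00000123898 had means of 2.44 and 2.03 FPKM after ketamine and 2.84 and 1.49 FPKM after saline, with overlapping ranges.

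The Fkbp5 transcript ENSMUST00000079413 passed although its gene did not. It was at 4.34, 5.38, 4.15 and 4.18 FPKM after ketamine and at 1.39 to 3.10 FPKM after saline, 1.86 times higher on the mean, with a limma adjusted p of 0.021 against 8 and 0.0156 against set II. The third was the Unc119 transcript ENSMUST00000108295, at 1.62, 1.69, 0.786 and 1.20 FPKM after ketamine and at 0.790 FPKM in the highest saline library, which lay above ketamine replicate 3. It falls outside the naming rule. The 2 Slc2a1 transcripts with the most FPKM had means above saline, ENSMUST00000174372 at a mean of 7.48 against 4.16 FPKM and ENSMUST00000030398 at 5.23 against 3.12 FPKM, but neither passed against the 8 saline libraries (limma adjusted p = 0.12 and 0.238). Cufflinks divides shared reads between the transcripts of a gene, so the values of its transcripts depend on each other.

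Against saline set II alone 561 genes passed (1.52%), 98 higher (0.266%) and 463 lower (1.26%), and 4807 had an unadjusted p under 0.05 (13.1%). The 6 genes called against the 8 saline libraries were all among them, which is 100% of the first list and 1.07% of the second. Both comparisons use the same ketamine libraries, and set II is part of the 8 saline libraries, so this overlap is partly built in. Of the 561 genes 184 were small RNA genes (31 higher and 153 lower, 5.19% of the small RNA genes tested), 171 other noncoding genes (4 and 167), 170 protein-coding genes (54 and 116) and 31 pseudogenes. Of the 98 higher genes 41 had a difference of the same sign against set I, and of the 463 lower genes 189. The median difference of the higher genes was 0.57 from set II and -0.05 from set I on the log2 scale, and that of the lower genes -0.53 and 0.04.

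Saline set II was also the group with the largest share of short transcripts, as given above, and with the share of short transcripts as a covariate 87 genes passed. The part of this share in the calls was not tested. Without ketamine replicate 1, the library with the lowest share in its group, 200 genes passed, and without set II replicate 2 the number was 806. At transcript level 447 passed against set II (0.528%), 82 higher (0.0968%) and 365 lower (0.431%).

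**Figure D4:**
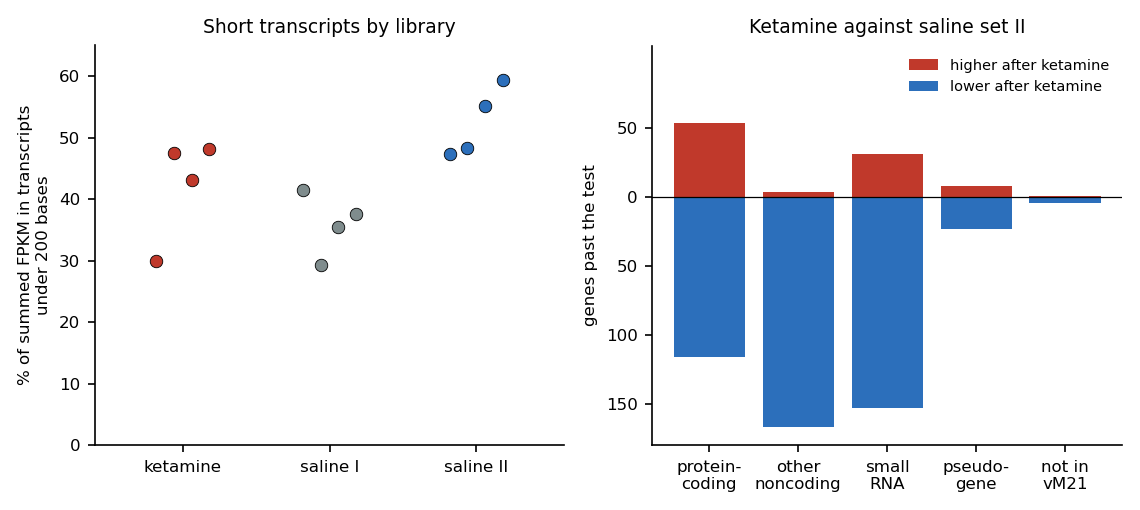
Left, percentage of the summed FPKM of each library in transcripts under 200 bases, with 1 point per library (n = 4 per group), lowest in saline set I and ketamine replicate 1 and highest in saline set II at 47.3% to 59.3%. Right, number of genes past the test against saline set II by gene class, with genes higher after ketamine above the line and genes lower after ketamine below it.

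The marker genes of cell types gave 0 calls in either comparison with limma, beside 0.0163% of all tested genes against the 8 saline libraries and 1.52% against set II. The PFCx identity of the tissue showed in projection neuron markers such as Slc17a7, the vesicular glutamate transporter gene, at 126 to 166 FPKM after ketamine and 111 to 152 FPKM after saline. Markers of striatal neurons, from tissue next to the cortex, had a summed level of 35.4 to 72.3 FPKM over 9 genes after ketamine and 33.3 to 104.9 FPKM in set II, with Penk between 3.49 and 19.1 FPKM across ketamine libraries. The 8 microglia markers summed to 40.2 to 46.6 FPKM after ketamine, 36.4 to 42.4 FPKM in set I and 35.7 to 38.6 FPKM in set II. At an unadjusted limma p under 0.05, 4 of the 8 were higher against set II and 1 against the 8 saline libraries, with 0 lower. The 8 endothelial and mural markers summed to 26.1 to 29.9 FPKM after ketamine, 29.9 to 33.8 FPKM in set I and 31.0 to 36.3 FPKM in set II. Of these markers 7 of 8 had a negative difference, Flt1 lay below every saline library (3.02 to 3.88 against 3.92 to 5.06 FPKM), and no defining marker was at 0. Slc2a1, which is also an endothelial gene, was higher in the same libraries, and the part of these markers in the results was not tested. The 9 markers of choroid plexus, ependyma and blood summed to 30.6 to 66.9 FPKM after ketamine and 39.5 to 59.3 FPKM in set II but 90.8 to 128.9 FPKM in set I, above every ketamine library. The globin genes Hba-a1 and Hba-a2 were lower by 1.28 and 1.42 on the log2 scale with set I as the only control (limma adjusted p = 0.000845 and 0.000498), and did not pass against the 8 saline libraries or set II.

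The difference of the ketamine effect between the PFCx and the nucleus accumbens (NAc) was tested over the 16 libraries of ketamine and saline set II from both tissues. The test called 532 of 35111 genes (1.52%), with 205 more positive (0.584%) and 327 more negative (0.931%) in the PFCx. Small RNA genes made up 249 of the 532, which is 7.70% of the 3235 small RNA genes tested. Restricted to protein-coding genes the test called 54. The labels do not say whether the tissues came from the same mice.

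Of the genes above, Sgk1 had the smaller ketamine difference in the PFCx. Its NAc level was 39.7, 38.9, 37.8 and 36.8 FPKM after ketamine and 18.3 to 21.2 FPKM after saline set II, a ratio of means of 1.95 against 1.38 in the PFCx, and the difference between the log2 effects was -0.49 (limma adjusted p = 0.0109). The ratio of Tsc22d3 was 1.98 (NAc) against 1.60 (PFCx), and that of Fos 2.65 against 1.46. The differences between tissues did not pass, with log2 values of -0.29 (limma adjusted p = 0.317) and -0.67 (limma adjusted p = 0.147). Slc2a1 had ratios of 1.67 and 1.74 in the same order, with a difference of 0.05 ± 0.18 (SE, limma adjusted p = 0.95).

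Snhg12, Eif4a1 and Rpl6 had NAc ratios under 1. Snhg12 was at 62.5 to 84.8 FPKM after ketamine in the NAc and at 82.8 to 98.4 FPKM after saline, so that the PFCx effect exceeded the NAc effect by 1.15 on the log2 scale (limma adjusted p = 0.000365). Eif4a1 was at 73.7 to 116 FPKM against 174 to 199 FPKM in the NAc (difference of effects 1.60, limma adjusted p = 0.000287), and Rpl6 at 316 to 525.9 FPKM against 575 to 623 FPKM (1.29, limma adjusted p = 0.0057). In the same NAc libraries the share of short transcripts was 22.1% to 34.9% after ketamine and 28.1% to 41.0% after saline set II, whose part in these values was not tested. Dancr, the other snoRNA host above, had an NAc ratio of 1.01, and its difference between tissues did not pass (1.82, limma adjusted p = 0.168). Nol4 and Impa1 had PFCx ratios under 1 and NAc ratios of 1.07 and 1.19 and differences of effects of -0.43 (limma adjusted p = 0.0304) and -0.57 (limma adjusted p = 0.0302), kept in 10 and 13 of 24 alternatives.

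The 4 genes with the lowest p of this test, Gm22068, Rnu1a1, Gm24305 and Gm22317, are copies of U1 spliceosomal RNA genes, with differences of effects of 3.88 to 4.05. Their near-identical sequences make the share of reads given to each copy uncertain. In the PFCx, Rnu1a1 was at 876 to 1025 FPKM after ketamine, between the 457 to 541 FPKM of set II and the 2405 to 3898 FPKM of set I.

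**Figure D5:**
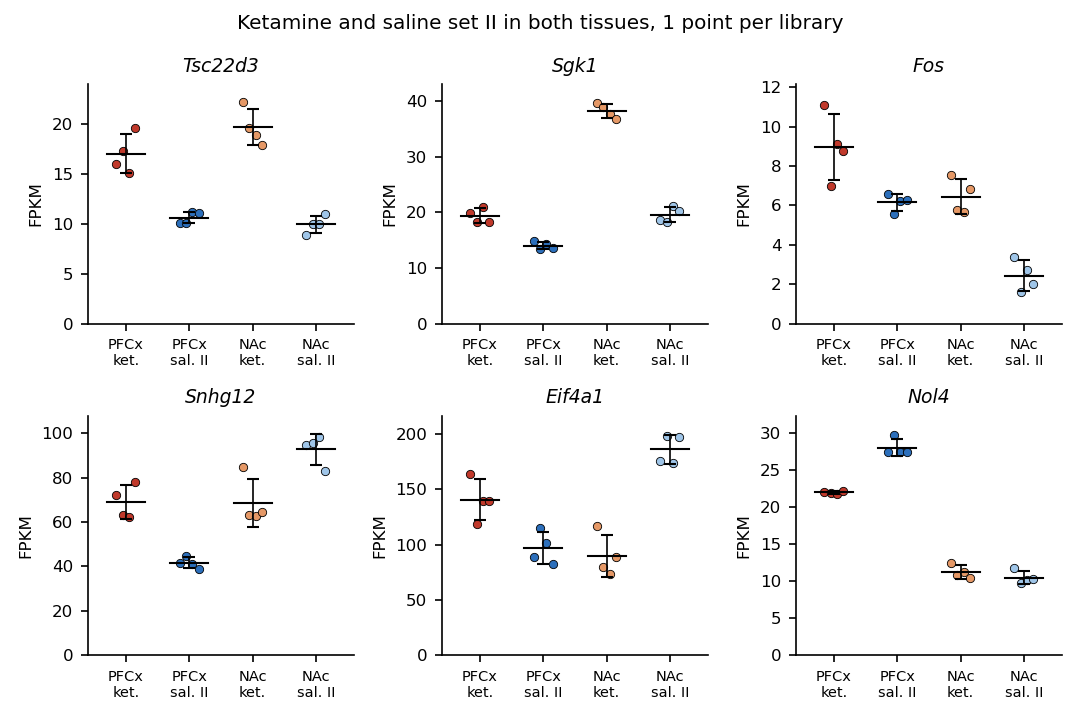
FPKM of 6 genes in the ketamine and saline set II libraries of the PFCx and the NAc, with 1 point per library (n = 4 per group), means as horizontal lines and SD as error bars. Tsc22d3, Sgk1 and Fos are higher after ketamine in both tissues, Snhg12 and Eif4a1 are higher in the PFCx and lower on the mean in the NAc, and Nol4 is lower in the PFCx.

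Ketamine was last set against 2 antidepressants in the PFCx, venlafaxine at 16 mg/kg and mianserin at 20 mg/kg. Venlafaxine is an inhibitor of serotonin and noradrenaline reuptake, and mianserin is a blocker of serotonin and adrenergic receptors. Against venlafaxine 2 of 36807 genes passed (0.00543%), both higher after ketamine, and 2160 had an unadjusted p under 0.05 (5.87%). Tsc22d3 was at 15.1 to 19.6 FPKM after ketamine and 9.85 to 12.3 FPKM after venlafaxine (log2 difference 0.62, limma adjusted p = 0.0324). Trib1, a pseudokinase gene, was at 2.38 to 2.55 FPKM after ketamine and 1.21 to 1.72 FPKM after venlafaxine (log2 difference 0.51, limma adjusted p = 0.0324), while its difference from the 8 saline libraries did not pass (0.25, limma adjusted p = 0.335). Both calls were lost after rescaling the libraries to the same 75th percentile, and 9 and 6 of 16 alternatives kept them.

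Against mianserin 80 genes passed (0.217%), 38 higher (0.103%) and 42 lower (0.114%) after ketamine, and after the same rescaling 21 and 60. Sgk1 was at 28.6 to 37.1 FPKM after mianserin, above the 18.2 to 21.04 FPKM after ketamine (log2 difference -0.75, limma adjusted p = 0.001). The difference of Tsc22d3 did not pass, with 13.5 to 18.1 FPKM after mianserin and a log2 difference of 0.08 (limma adjusted p = 0.955). The genes with the lowest p were Gm14636, higher after ketamine by 0.67, and Cyr61, Dusp5 and Gm38299, lower by 0.90, 0.66 and 0.55 on the log2 scale. Cyr61 encodes a secreted matrix protein and Dusp5 a phosphatase of ERK, and both are immediate-early genes. Dusp5 was at 0.986 to 1.31 FPKM after ketamine and 0.689 to 0.978 FPKM after saline, so that ketamine stood above saline and below mianserin on the mean.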

How the data were processed

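The authors depleted total RNA of ribosomal RNA, sequenced it with Ion Total RNA-seq chemistry, aligned the reads with TopHat 2.0.1 and then, per the labels and methods, Tmap 3.0.2, and estimated levels of Ensembl transcripts of GRCm38 with Cufflinks 2.2.1. They deposited, for each library and transcript, the FPKM and the read coverage, a signal not scaled to depth that served here with FPKM to estimate aligned bases. FPKM was summed per gene symbol, and features averaging 0.1 FPKM or more in the 32 PFCx libraries were tested on log2(FPKM + 1), with a pseudocount of 1.

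Differences were tested with limma 3.58.1 in R 4.3.3 with Benjamini-Hochberg adjustment over all features, in a fit of the 32 PFCx libraries with 7 treatment groups (8 groups with the saline sets apart), or of 16 libraries for the difference from the NAc. For single genes an exact permutation test (two-sided) was added. The fits were checked on simulated data before use. Gene types came from GENCODE M21, which matched 99.0% of the transcripts.

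Named genes were the 12 higher and 12 lower genes of lowest p with all ketamine libraries outside the range of saline and 1 FPKM or more on the mean, the NMDA receptor subunits, the members past the test or, where none passed, the 2 of lowest p in each list, 8 transcripts, and 4 genes for each other contrast. Of the genes shown, Fosb, Irs2, Dusp5 against saline, Arc, Bdnf, Npas4, Homer1, Fkbp5, Cdkn1a, Nr3c1, Unc119 and Gm25445 fall outside this rule. The members and lists were chosen with earlier results of these data known. Alternatives changed the pseudocount, filter, scaling, variance trend, control set, block, samples of the fit or left out 1 library. Libraries of the other drugs in the NAc were not used here, and 1 gene that the rule names is not reported here.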

Additional observations from a re-analysis of the deposited data

Results flagged for a closer look

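Among 45 genes the difference of the ketamine effect between tissues (PFCx minus NAc, log2 scale, limma) passed for 9. It was 1.15 for Snhg12, 1.29 for Rpl6, 1.60 for Eif4a1, 3.97 for Snhg1 (adjusted p = 2.17e-07) and 4.05 for Rnu1a1. It was -0.43 for Nol4, -0.49 for Sgk1, -0.57 for Impa1 and -0.67 for Klf6 (adjusted p = 0.0388), kept in 6 of 24 alternatives, whose NAc level was 2.58 to 4.36 FPKM after ketamine and 2.04 to 2.73 FPKM after saline set II.

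Over 180 groups of libraries 14 held 1 library far from the others by Dixon's test, which flags about 1 in 20 groups by chance. In the ketamine group replicate 1 stood apart for Irs2 at 7.90 FPKM and Arc at 15.3 FPKM. In saline set I, replicate 2 stood apart for Rpl6 at 231.9 FPKM, Dancr at 1.02 FPKM and Msmo1 at 17.2 FPKM, and replicate 4 among the 8 saline libraries for Gm25445 at 0.593 FPKM and Grin2d at 1.13 FPKM. In saline set II, replicate 2 stood apart for Nol4 at 29.8 FPKM and replicate 4 for Dusp5 at 0.978 FPKM and the striatal marker Penk at 21.8 FPKM. Grin3b at 0.0971 FPKM in set II replicate 3 stood apart among the 8 saline libraries alone. The values of Dancr, Nol4 and Penk also stood apart among all 8 saline libraries.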

How the results depend on the processing

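Of 169 single-gene differences 19 changed sign in at least 1 alternative, and 0 of these 19 passed the limma test as first fitted. Against the 8 saline libraries the count of 6 became 11 with a filter of 1 FPKM, 3 with a mean-variance trend, 3 in a fit of the compared groups alone, 65 with the mean of the set means as control, 772 (120 higher and 652 lower) with set I alone and 561 with set II alone. At transcript level the count of 3 became 5 with no filter or rescaled to the same 75th percentile, 1 with the groups alone, 25 with the mean of the set means and 627 with set I alone. Against set II the 561 genes became 280 with a pseudocount of 0.1, 282 with a filter of 1 FPKM and 82 with the groups alone, and the 447 transcripts became 83, 261 and 2. The difference from the NAc went from 532 to 342 with a pseudocount of 0.1. The 2 genes against venlafaxine became 0 with a pseudocount of 0.1, 0 when rescaled and 1 with a trend. Chosen after seeing the data, the share of short transcripts as covariate gave 17 against 8 and 87 against set II, transcripts of at least 200 bases gave 307 against set II and 193 for the NAc difference, and protein-coding genes alone gave 94 and 54. The causes were not tested. Leaving out 1 library at a time gave 2 to 8 genes against 8 (2 without ketamine replicate 1 or 4, 3 without ketamine 2, set II 3, set I 1 or set I 2), 200 to 806 against set II (200 without ketamine 1, 323 without ketamine 3, 257, 250 and 293 without set II 1, 3 and 4), 359 to 684 for the NAc difference, 0 to 4 against venlafaxine and 39 to 81 against mianserin (47, 40 and 52 without ketamine 2, 3 and 4, 39 without mianserin 3), and 2 to 10 and 82 to 788 transcripts. The same-numbered ketamine and set II libraries correlated at 0.34, -0.11, 0.07 and 0.39 in their deviations, those of mianserin at 0.63, 0.20, 0.08 and 0.29, those of venlafaxine at 0.28, 0.23, 0.07 and 0.04 and those of set I at -0.31, -0.19, 0.09 and -0.07. In each group at least 1 pair was under 0.1, so the numbers were not taken as pairs. Differently numbered libraries correlated at -0.38 to 0.29 for set II and -0.47 to 0.23 for mianserin. For venlafaxine the range was -0.30 to 0.20 and for set I -0.08 to 0.28. Whether libraries of the same number share a batch was not tested, and the main fits make no allowance for it. With the replicate block 13 genes passed against 8, 689 against set II, 458 for the NAc difference, 8 against venlafaxine and 84 against mianserin, and 5 and 529 transcripts. Without read counts, the precision of low levels is unknown.

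With set I as the only control the sign changed for Grin2b (-0.036), Grin3a (-0.062), Bdnf (-0.070) and Homer1 (0.16). With set II as the only control it changed for Grin2d (0.045), Hba-a2 (0.11), Hba-a1 (0.21) and Npas4 (0.044). When rescaled it changed for Npas4 (0.0057, against 8) and Slc17a7 (-0.019, against set II). With the share of short transcripts as covariate it changed against set II for Grin1 (-0.0061), Chrnb2 (-0.029), Slc17a7 (-0.10), Vip (0.028), Ppp1r1b (-0.028) and Hba-a2 (-0.22). Leaving out 1 library at a time took the log2 difference against 8 of Grin3a from -0.022 to 0.062, Penk from -0.050 to 0.67, Grin2d from -0.044 to 0.045, Npas4 from -0.079 to 0.090, Homer1 from -0.068 to 0.031 and Bdnf from -0.016 to 0.061. Against set II it took Slc17a7 from -0.074 to 0.056, Vip from -0.090 to 0.017, Ppp1r1b from -0.047 to 0.56, Penk from -0.16 to 0.66, Hba-a2 from -0.046 to 0.32, Ctgf from -0.30 to 0.0097 and Pdgfra from -0.16 to 0.089. For the difference from the NAc it took Slc2a1 from -0.070 to 0.13.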
